A study of Mus musculus with 9 samples.

Results

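The genes described here encode proteins that write, copy and remove DNA methylation at CpG sites in mouse cells, namely Dnmt1, Uhrf1, Dnmt3a, Dnmt3b, Dnmt3l and Tet1. They were found on the array by gene symbol or RefSeq accession, and 6 of 6 were present, each with 1 probe, among 15784 named genes. DNA methylation is placed on unmethylated CpG sites by the de novo methyltransferases Dnmt3a and Dnmt3b, with Dnmt3l as a cofactor that has no catalytic activity of its own. After DNA replication the pattern is copied to the new strand by Dnmt1, which Uhrf1 brings to sites methylated on the old strand alone, and Tet1 oxidizes the methyl group as a step towards its removal. Embryonic stem (ES) cells are known for high de novo activity together with Tet1, and the resetting of DNA methylation is part of the change of a fibroblast into a pluripotent cell.

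RNA of 9 mouse samples was measured on 1-colour Agilent arrays, with 1 hybridization for each. There were 4 clones of induced pluripotent stem-like (iPS) cells, grown from mouse embryonic fibroblasts (MEF) that had a bgeo reporter and drug-resistance cassette knocked into Fbx15, received retroviruses for 3 factors (2 clones), 4 factors (1 clone) or 10 factors (1 clone), and were kept in ES cell medium with G418 for 16 days. Each of them is a clone, so a value describes that clone and not a population. The ES sample was 1 Fbx15-null line grown on STO cells, which are mouse fibroblast feeder cells. The 4 fibroblast-derived samples were NIH3T3 cells transformed by a retroviral HRasV12, a spontaneously immortalised line of wild-type MEF that expresses KRasV12 (immortalised MEF line below), Fbx15 bgeo knock-in MEF that received 4 factors without G418 and gave no iPS clones (unselected MEF below), and Fbx15-null MEF from E13.5 embryos (MEF below). The labels do not name the factors, so they do not tell whether a gene described here was among the 10, and whether its probe would read a vector transcript was not tested. Levels are log2 of the probe's signal over the array's 75th percentile, with a floor at -4.78, and they rank samples for 1 gene but not genes against each other.

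Between 52.4% and 59.6% of probes were well above background on an array. The ES cell markers fixed for the check were measured in 7 of 8 in ES cells, in 2 and 3 of 8 in the 3-factor clones, 6 with 4 factors, 7 with 10 factors and 1 in MEF. Pou5f1 was measured in all 4 clones, while Nanog was not well above background in either 3-factor clone. The 8 fibroblast markers summed to 1170% and 714% of the array's 75th percentile in the 3-factor clones, 683% with 4 factors, 1700% with 10 factors and 1420% in ES cells, against 8120% in the NIH3T3 HRasV12 cells, 20600% in the immortalised MEF line, 63300% in the unselected MEF and 47400% in MEF. Macrophage markers were measured in 5 of 6 in the unselected MEF and 4 of 6 in MEF, against 2 of 6 in every other sample. In such bulk RNA, fewer cells of a type and less RNA per cell cannot be told apart. The scanner files show 4 scans, the first for ES cells, MEF and the clones made with 4 and 10 factors, the second for both 3-factor clones, the third for the HRasV12 cells and the immortalised line, and the fourth for the unselected MEF.

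The sequences in front of these genes are shown because methylation acts on CpG sites, and such genes can carry many or few of them at their own starts. RefSeq (build GRCm38.p6) gave 13 promoter windows for the 6 genes, each from 250 bases before to 50 bases after a transcript start. Among all 32851 windows the median was 7 CpG. Dnmt3a had 46 and 47 CpG in the windows of its neighbouring upstream starts and 18 in the window of a start far inside the gene. Dnmt3b had 30, and Tet1 had 17. The 3 Dnmt3l windows had 6, 4 and 3, all below the median. Dnmt1 had 2 in its outermost window, 12 and 33 in the windows of internal starts, and Uhrf1 had 12 and 33. The runs below end just before the outermost annotated start of 4 of the genes, 5′ to 3′ on the gene's strand, with CpG in capitals, and hold 14, 7, 4 and 9 CpG in the order given.
Dnmt3b, chr2:153649261-153649410 (+): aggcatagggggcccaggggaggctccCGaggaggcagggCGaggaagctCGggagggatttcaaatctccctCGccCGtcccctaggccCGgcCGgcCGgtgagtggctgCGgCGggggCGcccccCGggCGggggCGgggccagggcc
Tet1, chr10:62887470-62887574 (-): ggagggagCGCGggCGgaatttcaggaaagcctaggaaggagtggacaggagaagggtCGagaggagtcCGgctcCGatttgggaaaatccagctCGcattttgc
Dnmt3l, chr10:78042137-78042286 (+): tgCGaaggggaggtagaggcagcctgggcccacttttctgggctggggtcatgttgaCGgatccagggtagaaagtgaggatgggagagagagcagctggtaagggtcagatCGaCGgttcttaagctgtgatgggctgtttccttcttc
Uhrf1, chr17:56303187-56303336 (+): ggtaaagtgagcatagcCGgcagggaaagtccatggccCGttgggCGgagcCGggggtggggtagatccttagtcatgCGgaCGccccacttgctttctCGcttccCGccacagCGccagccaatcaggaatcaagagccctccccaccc

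Windows were also searched on both strands for the octamer bound by Oct factors, ATTTGCAT, and for a pair of motifs like those bound by the cell-cycle factors of the E2F family, TTCCCGCC and TTTGGCGC. The octamer was in none of the 13 windows and in 1.74% of all windows. The E2F-like letters were found in the windows of the maintenance pair and in no window of the other 4 genes. In Uhrf1 the first of the motifs began 48 bases before the outermost start, and 2.19% of all windows hold it. In Dnmt1 the other began at base 34 after an internal start, and 0.514% of all windows hold it. The motifs are in capitals in these runs, and a match is a description of letters and not of binding.
Uhrf1, chr17:56303278-56303307 (+): tgctttctcgcTTCCCGCCacagcgccagc
Dnmt1, chr9:20952574-20952601 (-): gcggggcagcgTTTGGCGCgggctgtgc

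Tests were made with limma on the log2 levels of all probes that passed a filter on low values, with p-values adjusted over all of them and a gene called where the adjusted p was under 0.05. Of the 6 genes, 1 was called higher and 0 lower in the clones than in the fibroblast-derived samples, where 4.19% of the 12938 probes tested were called higher and 4.73% lower. Against MEF, 1 of 6 was called higher and 0 lower, where 4.7% and 9.33% of probes were called. Against ES cells, 0 of 6 were called (limma at an adjusted p under 0.05), where 4.04% of probes were higher and 9.42% lower. At an unadjusted p under 0.05 by limma Tet1 alone passed, and was lower, where 4070 of all 13199 probes passed in either direction. For 3 of 6 genes, Dnmt1, Dnmt3b and Tet1, every clone was above every fibroblast-derived sample, a pattern that 8.69% of the probes showed. Such separation fixes the exact two-sided permutation p at 0.0286, the smallest that 4 against 4 samples allow, so that p adds nothing to the pattern, and the exact p was 0.343 for Uhrf1, 0.629 for Dnmt3l and 0.714 for Dnmt3a. All 6 passed the filter on low values in each of these comparisons. No label states separate cultures, so the p-values reflect only the spread between these samples, which may be technical in part.

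**Figure D1:**
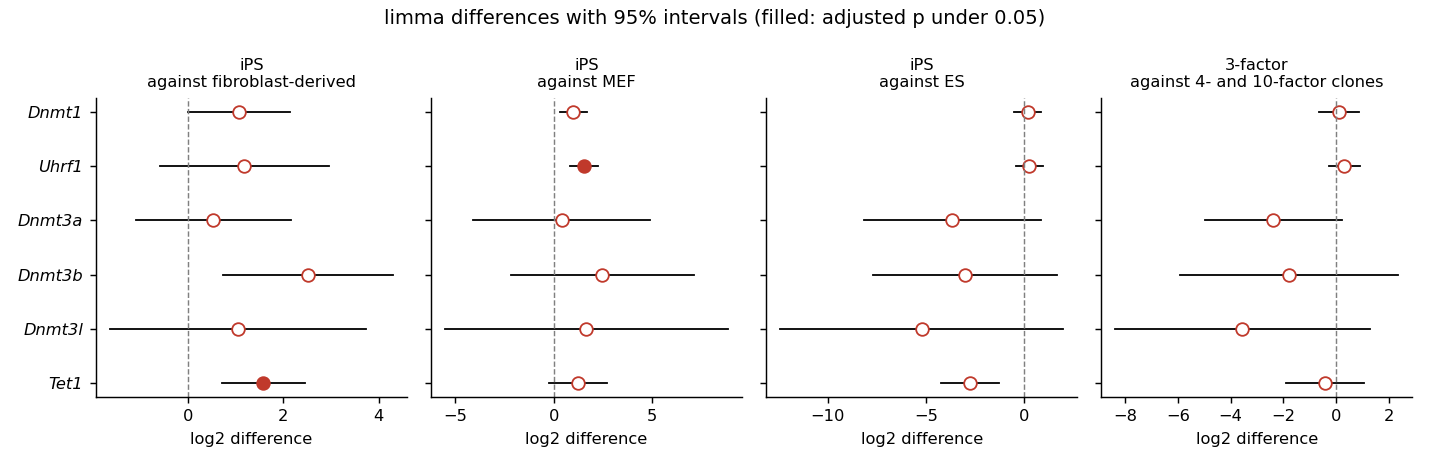
Log2 difference with its 95% interval from limma (horizontal axes, whose scales differ) for the 6 genes (vertical axis) in each of the 4 comparisons, with the sample named first minus the other. Filled points passed an adjusted p of 0.05, which were Uhrf1 against MEF (1.52) and Tet1 against the fibroblast-derived samples (1.58).

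The maintenance pair was bright in every clone and in ES cells. Dnmt1, the maintenance methyltransferase, stood at 1.88 and 2.3 in the 3-factor clones, 2.16 with 4 factors and 1.8 with 10 factors, against 1.82 in ES cells, and at 1.61 in the NIH3T3 HRasV12 cells, 1.67 in the immortalised MEF line, -0.44 in the unselected MEF and 1.04 in MEF. All 4 clones were above all 4 fibroblast-derived samples, although the gap between the 10-factor clone and the immortalised MEF line was smaller than the SD of the clones (0.24). The mean was 2.03 ± 0.24 in the iPS clones and 0.97 ± 0.98 in the fibroblast-derived samples (SD, n = 4 each). The difference of 1.06 ± 0.46 (SE) did not pass limma's test over all probes (adjusted p = 0.193).

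Uhrf1, the protein that recognises CpG sites still unmethylated on the newly made strand, stood at 1.9 and 2.29 in the 3-factor clones, 1.86 with 4 factors and 1.72 with 10 factors, against 1.65 in ES cells. It was at 2.07 in the NIH3T3 HRasV12 cells, 2.09 in the immortalised MEF line, -1.55 in the unselected MEF and 0.43 in MEF. The clones overlapped the immortalised MEF line and the NIH3T3 HRasV12 cells, while the unselected MEF and MEF lay below all other samples. Uhrf1 rose in the clones relative to MEF, by 1.52 ± 0.25 (SE) on the log2 scale (2.86-fold, limma adjusted p = 0.0389), with 4 of 4 clones above MEF. Relative to all 4 fibroblast-derived samples the difference was 1.18 ± 0.77 (limma adjusted p = 0.357), and it was 0.41 without the unselected MEF.

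The limits of the call against MEF are that the lone MEF array was assumed to vary like the clones, and that leaving out any 1 clone ended it, at limma adjusted p between 0.0576 and 0.122. It was also lost with the spread pooled over 9 arrays (limma adjusted p = 0.629), with scaling to the median (0.109), without the filter (0.0826) and with scan as a block, where MEF and the 4- and 10-factor clones of scan 1 give a difference of 1.36 (limma adjusted p = 0.0609).

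**Figure D2:**
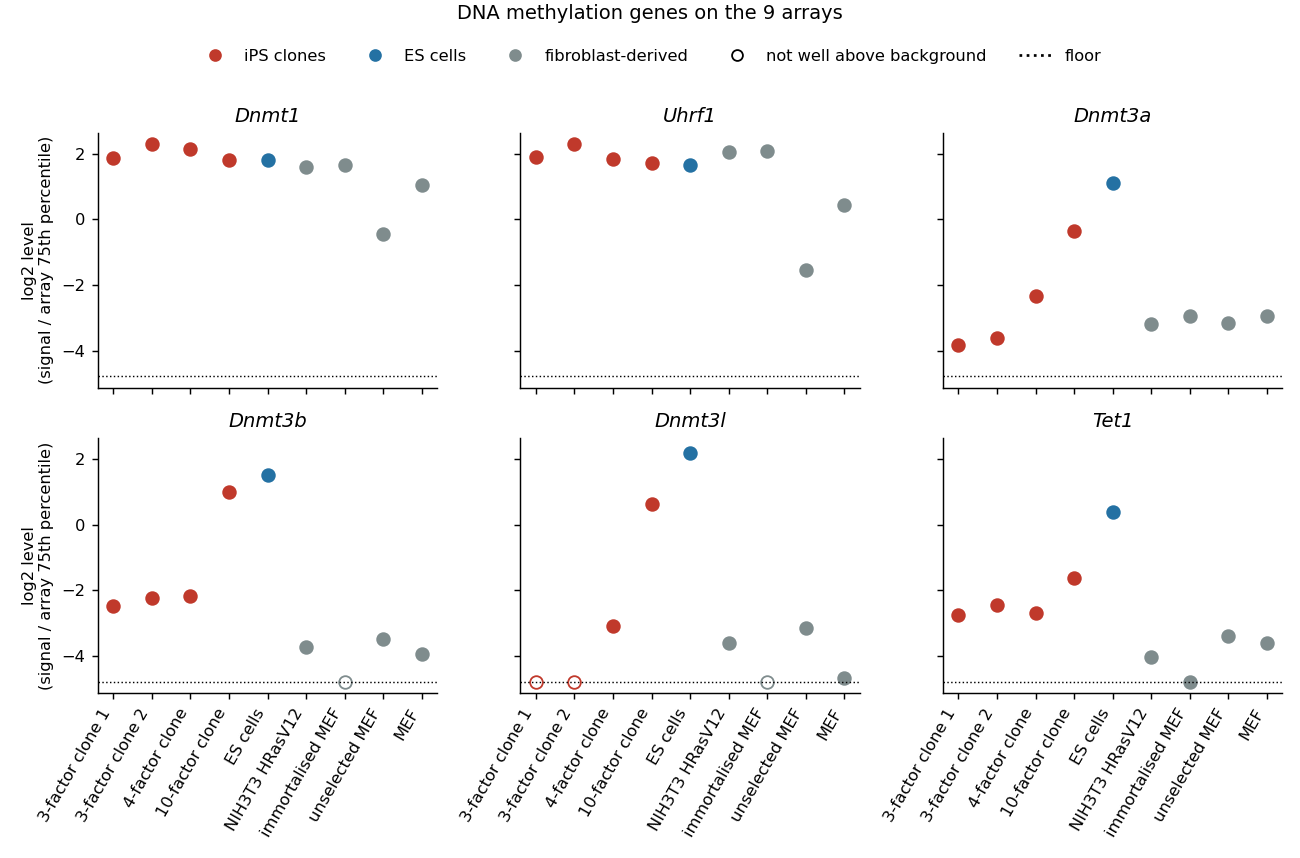
Log2 level (signal over the array's 75th percentile, vertical axis) of each of the 6 genes in each of the 9 samples (horizontal axis), 1 point per array, open where the probe was not well above background, with the floor as a dotted line. Dnmt1 and Uhrf1 lie between 1.72 and 2.3 in all clones, while Dnmt3a, Dnmt3b, Dnmt3l and Tet1 are highest in ES cells and, among the clones, in the 10-factor clone.

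Neither maintenance gene was called different between the clones and ES cells. The difference from ES cells was 0.21 for Dnmt1, with a 95% interval from -0.48 to 0.9, and 0.29 for Uhrf1, with an interval from -0.42 to 1. In the order of levels, 3-factor clone 1, ES cells and the 10-factor clone were neighbours for Dnmt1 and lay closer than the SD of the clones. Single arrays were also set against MEF, where at least 2-fold counts as a difference and no test was made. In ES cells Uhrf1 was 2.34-fold higher than in MEF and Dnmt1 1.72-fold higher. Uhrf1 was 3.13-fold higher in the NIH3T3 HRasV12 cells and 3.17-fold higher in the immortalised MEF line, with Dnmt1 within 2-fold in both. In the unselected MEF both were lower than in MEF, Dnmt1 by 2.79-fold and Uhrf1 by 3.93-fold.

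The maintenance genes were set beside genes of DNA replication and the cell cycle, because Dnmt1 and Uhrf1 act at the replication fork. The median log2 level of 24 replication genes was 2.62 and 2.93 in the 3-factor clones, 2.93 both with 4 and with 10 factors, against 3.4 in ES cells. It was 2.84 in the NIH3T3 HRasV12 cells, 2.93 in the immortalised MEF line, 1.11 in the unselected MEF and 1.82 in MEF. The samples with low Dnmt1 and Uhrf1 were thus those with low replication genes, and the part of this in the results was not tested. Against MEF, 6 of 24 replication genes rose in the clones and none fell, with a list median of 0.96 against 0.04 over all 13039 probes, of which 4.7% were called higher. They included Gins1 (1.7 ± 0.3, limma adjusted p = 0.0435), part of the replicative helicase, Mcm7 (1.47 ± 0.27, limma adjusted p = 0.0463) and Mcm3 (1.05 ± 0.15, limma adjusted p = 0.0284), helicase subunits, and the mitotic cyclin Ccnb1 (1.35 ± 0.19, limma adjusted p = 0.0282). Pcna, the sliding clamp, was at 1.25 ± 0.26 and was not called (limma adjusted p = 0.058), nor was Mcm6 at 1.27 ± 0.33 (limma adjusted p = 0.0878). Against all 4 fibroblast-derived samples 24 of 24 had a positive difference (median 0.61, against 0.02 over all 12938 probes). Of these, limma called 0, where 4.19% of all probes were called higher. An unadjusted p under 0.05 was found for 5 of the 24 and for 3356 of the 12938 probes. Against ES cells 0 of 24 were called higher and 4 lower, where 9.42% of all probes were called lower, with a list median of -0.38 against -0.07 over all 13199 probes. They were Cdc6 (-1.71 ± 0.29, limma adjusted p = 0.0429), which loads the helicase, the helicase subunits Mcm2 (-1.67 ± 0.21, limma adjusted p = 0.0234) and Mcm3 (-1.45 ± 0.14, limma adjusted p = 0.0133), and the topoisomerase Top2a (-1.51 ± 0.2, limma adjusted p = 0.0265).

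**Figure D3:**
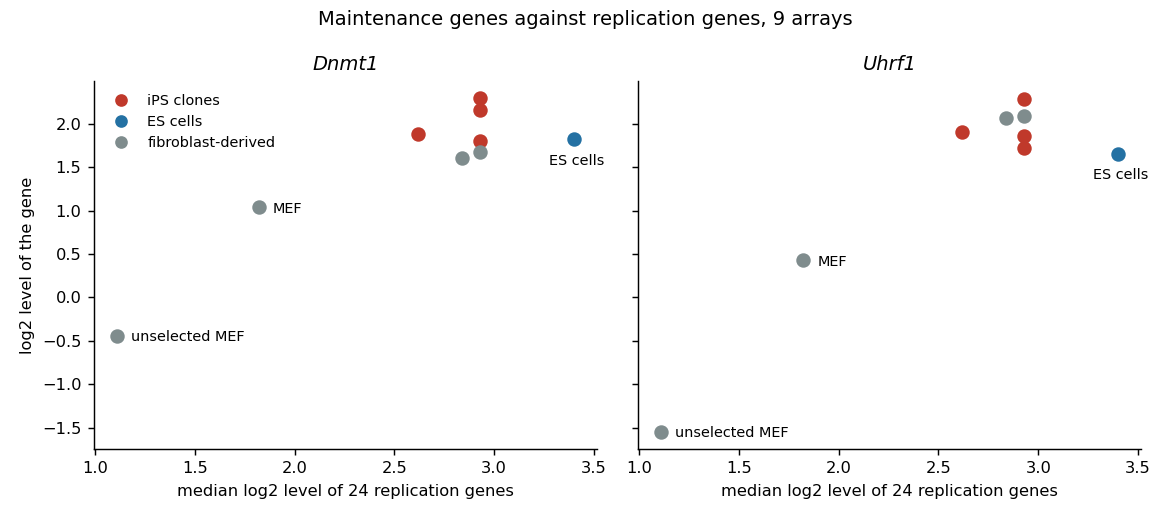
Log2 level of Dnmt1 (left) and Uhrf1 (right) on the vertical axis against the median log2 level of 24 replication genes on the horizontal axis, 1 point per array for the iPS clones, ES cells and fibroblast-derived samples. The unselected MEF (median 1.11) and MEF (1.82) lie low on both axes, apart from the other 7 samples.

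Across the 9 arrays Dnmt1 and Uhrf1 moved together (Pearson's r = 0.96), and neither followed the other 4 genes (r between 0.02 and 0.33). The unselected MEF (-0.44 and -1.55) and MEF (1.04 and 0.43) were the lowest samples for both genes, and r without them was not computed. These correlations describe 9 samples that include related clones, and carry no test. Among 9772 probes measured on at least 50% of the arrays, those most like Dnmt1 were Ddx51 (r = 0.99), an RNA helicase of ribosome synthesis, Gins1 (0.97) and Rnf220 (0.97), a ubiquitin ligase. Those most like Uhrf1 were Pop1 (0.98), a subunit of RNase P, Cdc45 (0.98), another part of the replicative helicase, and Dot1l (0.98), a histone methyltransferase.

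The de novo genes and Tet1 had another order, with ES cells on top and the 10-factor clone next for all 4. Dnmt3b, one of the de novo methyltransferases, stood at -2.48 and -2.24 in the 3-factor clones, -2.17 with 4 factors and 1.01 with 10 factors, against 1.51 in ES cells. It was at -3.74 in the NIH3T3 HRasV12 cells, not well above background in the immortalised MEF line, at -3.49 in the unselected MEF and at -3.94 in MEF. All 4 clones were above all 4 fibroblast-derived samples, although the gap between 3-factor clone 1 and the unselected MEF was smaller than the SD of the clones (1.66). The 10-factor clone was within 2-fold of ES cells (1.41-fold lower) while the other clones were 12.8- to 15.9-fold lower than ES cells. The difference from the fibroblast-derived samples was 2.52 ± 0.77 (SE), or 5.72-fold, and was not called (limma adjusted p = 0.0846). Without the 10-factor clone it was smaller, at 1.69, and was called (limma adjusted p = 0.0385), as was the difference from MEF (1.64, limma adjusted p = 0.0368, against 2.47 and 0.377 with it), and with normexp, another background correction, it was 1.06 (limma adjusted p = 0.253). In single arrays Dnmt3b was 43.7-fold higher in ES cells than in MEF and at least 2.87-fold lower in the immortalised MEF line than in MEF, where "at least" sets the dim side to the lowest signal well above background on its array or to the probe's own, whichever is higher. This can give more than the level difference computed with the common floor.

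Dnmt3a, the other de novo methyltransferase, stood at -3.83 and -3.63 in the 3-factor clones, -2.34 with 4 factors and -0.35 with 10 factors, against 1.12 in ES cells. It was at -3.19 in the NIH3T3 HRasV12 cells, -2.95 in the immortalised MEF line, -3.15 in the unselected MEF and -2.94 in MEF. The 3-factor clones were thus below, and the other clones above, all 4 fibroblast-derived samples, which lay within 0.25 of each other. However, the gaps from the 4-factor clone to MEF (0.61) and from the NIH3T3 HRasV12 cells to 3-factor clone 2 (0.44) were smaller than the SD of the clones (1.6). The 3-factor clones were 30.8- and 26.9-fold lower than ES cells, the 4-factor clone 11-fold and the 10-factor clone 2.77-fold. Against the fibroblast-derived samples the clones differed by 0.52 ± 0.71 (limma adjusted p = 0.663), and without the 10-factor clone the difference had the other sign (-0.21).

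Dnmt3l, the cofactor of de novo methylation, was not well above background in either 3-factor clone, stood at -3.09 with 4 factors and 0.64 with 10 factors, against 2.21 in ES cells. It was at -3.6 in the NIH3T3 HRasV12 cells, not well above background in the immortalised MEF line, at -3.14 in the unselected MEF and at -4.66 in MEF. The 10-factor clone was 2.98-fold and the 4-factor clone 39.4-fold lower than ES cells, and the 3-factor clones together were at least 194-fold lower. The 3-factor clones were at least 65.3-fold lower than the 10-factor clone and at least 4.94-fold lower than the 4-factor clone. The fitted difference from both was -3.56 ± 1.52 and was not called (limma adjusted p = 0.307). That difference was -5.42 without the 4-factor clone and -1.69 without the 10-factor clone. Both 3-factor clones stood at the floor, so no measured spread lies behind these fits against 1 clone and no p is given. The clones overlapped the fibroblast-derived samples, and that difference was 1.04 ± 1.17 (limma adjusted p = 0.593).

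Tet1, which oxidizes methylated cytosine, was called higher in the clones than in the fibroblast-derived samples. It stood at -2.74 and -2.43 in the 3-factor clones, -2.7 with 4 factors and -1.62 with 10 factors, against 0.39 in ES cells. It was at -4.03 in the NIH3T3 HRasV12 cells, at the floor of -4.78 in the immortalised MEF line, at -3.38 in the unselected MEF and at -3.6 in MEF. No clone overlapped a fibroblast-derived sample. Tet1 rose by 1.58 ± 0.38 (SE) on the log2 scale, or 2.99-fold (limma adjusted p = 0.0408). Relative to MEF alone the difference was 1.23 ± 0.52 and was not called (limma adjusted p = 0.201).

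The Tet1 call was close to the threshold. It ended when either 3-factor clone, the 4-factor clone, the 10-factor clone, MEF, the immortalised MEF line or the NIH3T3 HRasV12 cells were left out, with differences between 1.3 and 1.7, and among these it stood without the unselected MEF alone. With normexp the difference was 0.46 (limma adjusted p = 0.243), and with scan as a block it was 1.44 (limma adjusted p = 0.235).

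All 4 clones had lower levels than ES cells of Dnmt3a, Dnmt3b, Dnmt3l and Tet1, by amounts that differed widely between the clones. However, the gap from ES cells to the 10-factor clone was smaller than the SD of the clones for all but Tet1. It was 1.47 for Dnmt3a (SD 1.6), 0.5 for Dnmt3b (SD 1.66) and 1.58 for Dnmt3l (SD 2.55). The mean difference from ES cells was -5.22 ± 2.54 for Dnmt3l, -3.65 ± 1.59 for Dnmt3a, -2.98 ± 1.65 for Dnmt3b and -2.77 ± 0.52 (SE) for Tet1, with limma adjusted p between 0.0513 for Tet1 and 0.324 for Dnmt3b. Tet1 was lower than ES cells in 4 of 4 clones, by 4.04-fold in the 10-factor clone and by 7.08- to 8.77-fold in the others. The Tet1 difference passed the test under 5 of 15 alternatives and did not under the other 10. With all 4 clones kept, it passed with normexp (-1.74), quantile normalization (-2.84), a stricter filter (-2.77) and the spread pooled over 9 arrays (-2.77). Without the 10-factor clone the differences of Tet1 (-3.02, limma adjusted p = 0.0139) and Dnmt3b (-3.81, limma adjusted p = 0.0096) passed the test, while those of Dnmt3a (-4.38, limma adjusted p = 0.078) and Dnmt3l (-6.43, limma adjusted p = 0.0596) did not.

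The place of each clone on the way between MEF and ES cells was given as a percentage of the log2 difference between those samples, with 0 for MEF and 100 for ES cells. In the 10-factor clone it was 90.9% for Dnmt3b, 77.1% for Dnmt3l, 63.9% for Dnmt3a and 49.6% for Tet1, and the median of all 2943 probes that were at least 2-fold higher in ES cells than in MEF was 47%. In the 4-factor clone it was 32.4% for Dnmt3b, 22.9% for Dnmt3l, 14.9% for Dnmt3a and 22.7% for Tet1, all below the median of 39.5%. In the 3-factor clones it was 26.7% and 31.3% for Dnmt3b and 21.6% and 29.4% for Tet1, with medians of 36.4% and 44.6%. Dnmt3a was on the far side of MEF there, at -21.7% and -16.8%, and Dnmt3l was at the floor. For Dnmt3l the MEF level itself was near the floor (-4.66). The unselected MEF was at 22.2% and the NIH3T3 HRasV12 cells at 15.5% for this gene, beside 22.9% in the 4-factor clone. Uhrf1 was past ES cells in all 4 clones, between 105% and 152%, and also in the immortalised MEF line (135%) and the NIH3T3 HRasV12 cells (134%). The gap between the 10-factor clone and ES cells (0.07) was smaller than the SD of the clones (0.24). These percentages share the MEF and ES arrays and have no replicate check. In ES cells 5 of the 6 genes, all but Dnmt1, were at least 2-fold higher than in MEF, where 22.5% of probes were higher and 19.7% lower.

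**Figure D4:**
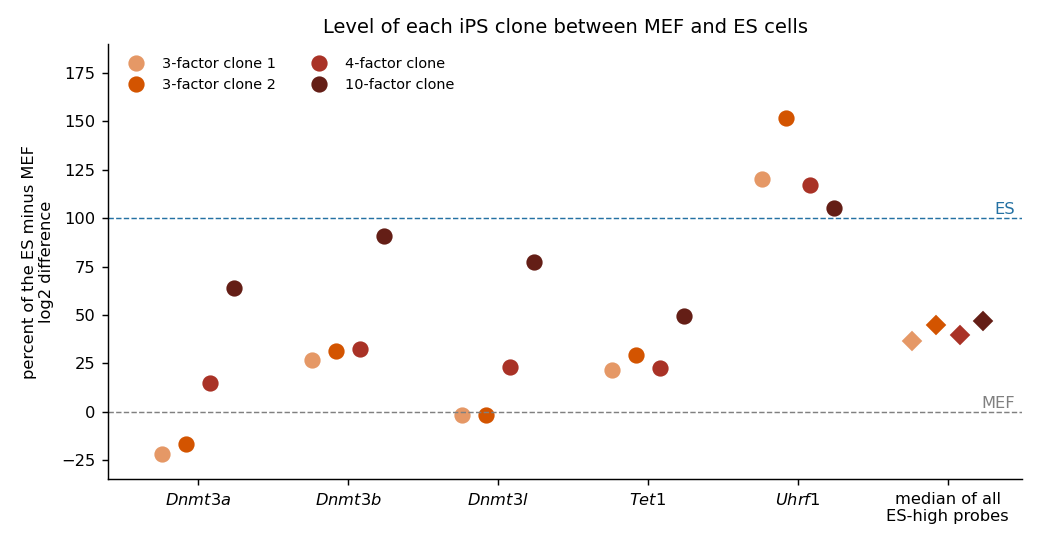
Place of each iPS clone between MEF (0) and ES cells (100), in percent of their log2 difference (vertical axis), for 5 genes and, as diamonds, for the median of the 2943 probes at least 2-fold higher in ES cells than in MEF. Dnmt3b, Dnmt3l and Dnmt3a lie highest in the 10-factor clone (63.9% to 90.9%), and Uhrf1 lies above 100 in all clones. For Uhrf1 the immortalised MEF line (135%) and the NIH3T3 HRasV12 cells (134%), which are not drawn, were above 100 too.

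Comparison of the 3-factor clones with the 4- and 10-factor clones called 0 of 6 genes with limma at an adjusted p under 0.05. At that threshold 0.0148% of probes were called in either direction. At an unadjusted p under 0.05 by limma 0 of 6 genes passed, where 3072 of all 13541 probes did. Factor number and scan cannot be told apart there. The difference was -2.38 ± 0.82 for Dnmt3a (-1.39 without the 10-factor clone and -3.38 without the 4-factor clone) and -1.78 ± 1.3 for Dnmt3b (-0.19 and -3.37), while it was -0.43 ± 0.46 for Tet1, 0.12 ± 0.24 for Dnmt1 and 0.3 ± 0.19 (SE) for Uhrf1. Within scan 1 the 4- and 10-factor clones differed by more than this for Dnmt3b, which was 3.41-fold higher than MEF with 4 factors and 31-fold higher with 10 factors.

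The remaining single arrays gave few differences from MEF in the de novo genes and Tet1. In the unselected MEF, Dnmt3l was 2.89-fold higher than in MEF and Dnmt3a, Dnmt3b and Tet1 were within 2-fold. There 1 of the 6 genes was higher and 2 lower, where 15.9% of probes were higher and 15.1% lower. In the NIH3T3 HRasV12 cells Dnmt3l was 2.09-fold higher, so 2 of 6 were higher and 0 lower, where 11.7% of probes were higher and 15.4% lower. In the immortalised MEF line Tet1 was 2.27-fold lower with its value at the floor, with Dnmt3a within 2-fold. There 1 of 6 was higher and 1 lower with levels counted at the floor, and by the bound given above Dnmt3b was lower too, while 14% of probes were higher and 16.7% lower than in MEF.

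Across the 9 arrays the de novo genes and Tet1 went together, with Pearson's r of 0.97 between Dnmt3a and Dnmt3l, 0.95 between Dnmt3b and Tet1, 0.9 between Dnmt3b and Dnmt3l, and 0.8 to 0.86 for the other 3 pairs. ES cells and the 10-factor clone were the top samples of all 4 genes, and over the other 7 samples Dnmt3b and Tet1 still had r = 0.96, while r was 0.56 for Dnmt3a with Dnmt3l and between -0.26 and 0.17 for the other 4 pairs. Many of these 7 values lie near the floor. The probes most like Dnmt3a were Sox15 (0.98), a relative of Sox2, Zp3 (0.98), an egg coat protein, and Chga (0.97), a protein of secretory granules. Dnmt3a itself was the probe most like Dnmt3l (0.97), followed by Sox15 (0.96) and Arid3b (0.96). Those most like Dnmt3b were the receptor kinase Ltk (0.98), Rab11fip4 (0.97) and Tcf15 (0.96), a transcription factor. Those most like Tet1 were Coil (0.98), the main protein of Cajal bodies, Arhgap4 (0.97) and Mtmr7 (0.97).

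Other genes of the pathway were taken from lists. Of the genes for oxidation and removal of methylated cytosine, 12 were tested against the fibroblast-derived samples, 2 rose and 0 fell (median 0.4, against 0.02 over all probes). There 4.19% of all probes were called higher and 4.73% lower. Tet2, a relative of Tet1, stood at -2.73 and -2.82 in the 3-factor clones, -2.13 with 4 factors and -2.99 with 10 factors, against -2.64 in ES cells, -4.2 in the NIH3T3 HRasV12 cells and -3.79 in the immortalised MEF line, and was not well above background in the unselected MEF and MEF. It rose by 1.72 ± 0.31 (limma adjusted p = 0.0152) and the clones were at least 4.97-fold above MEF (limma adjusted p = 0.0442). Unlike Tet1, it lay near the ES level in the clones, with a difference from ES cells of -0.03 and a 95% interval from -1.1 to 1.05. Tdg, the glycosylase that cuts out oxidized methylcytosine, rose by 1.3 ± 0.24 against the fibroblast-derived samples (limma adjusted p = 0.0175) and by 1.59 ± 0.22 against MEF (limma adjusted p = 0.0278). Gadd45g, a stress gene linked to demethylation (-0.04 ± 0.82), and the repair scaffold Xrcc1 (0.29 ± 0.24) did not pass in the first comparison. Against MEF, 11 were tested and the same pair, Tet2 and Tdg, was called, Tet2 with its MEF value at the floor. There 4.7% of all probes were called higher and 9.33% lower.

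Of the partners of the methyltransferases, 19 were tested against the fibroblast-derived samples, 1 rose and 0 fell (median 0.56), where 4.19% of all probes were called higher, and 20 against MEF, where 3 rose and 0 fell (median 0.64) and 4.7% of all probes were called higher. A count of 1 among 19 is near that background. Suv39h2, a histone H3 lysine methyltransferase of heterochromatin, rose by 1.52 ± 0.35 (limma adjusted p = 0.0344) in the first and by 1.68 ± 0.25 (limma adjusted p = 0.0331) against MEF. Cdca7, the partner of the remodeller Hells that is needed for maintenance methylation, rose by 1.94 ± 0.2 against MEF (limma adjusted p = 0.0159), and Kdm1a, a demethylase of histones that also acts on Dnmt1, by 0.65 ± 0.1 (limma adjusted p = 0.0319). Ehmt2 (-0.07 ± 0.17) and Hdac1 (-0.12 ± 0.46) did not pass there. Against ES cells, 1 of 19 was called higher and 2 lower, where 4.04% of all probes were called higher and 9.42% lower. Kdm1a was among the lower (-1.01 ± 0.09, limma adjusted p = 0.0112).

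Of the readers of CpG, 9 were tested and 0 were called by limma against the fibroblast-derived samples (median -0.41) or against MEF (median -0.38). Of all probes, 4.19% were called higher and 4.73% lower in the first, and 4.7% and 9.33% against MEF. At an unadjusted p under 0.05, 1 reader passed in the first, where 3356 of 12938 probes did. Against MEF 2 readers passed it, where 4351 of 13039 probes did. Mbd2, which binds methylated CpG, was at -0.58 ± 0.22 and Uhrf2, a relative of Uhrf1, at -0.5 ± 0.33 against the fibroblast-derived samples. Against ES cells 1 of 9 was called higher and 0 lower, where 4.04% of all probes were called higher and 9.42% lower. That gene was Mbd2, at 1.27 and 1.26 in the 3-factor clones, 1.05 with 4 factors and 1.15 with 10 factors, against -1.38 in ES cells, a difference of 2.57 ± 0.12 (5.93-fold, limma adjusted p = 0.00234). The clones thus lay near the fibroblast-derived samples, which had 1.54 to 2.31. Of the genes of the methyl donor cycle, 14 were tested, 2 rose and 0 fell against the fibroblast-derived samples (median 0.04). There 4.19% of all probes were called higher and 4.73% lower. Mtr, the methionine synthase, rose by 2.49 ± 0.31 (limma adjusted p = 0.00471), and Mthfd1, a folate enzyme that feeds it, rose by 1.89 ± 0.31 (limma adjusted p = 0.0108). Against MEF 2 of 14 rose, where 4.7% of all probes were called higher. They were Mthfd1 at 2.39 ± 0.09 (limma adjusted p = 0.00172) and Ahcy, which clears the product of methyl transfer, at 0.86 ± 0.11 (limma adjusted p = 0.0245). Ahcy was at 3.54 in the NIH3T3 HRasV12 cells and 3.13 in the immortalised MEF line, above every clone (2.81 to 3), so its difference from all 4 fibroblast-derived samples was 0.13 ± 0.34 (limma adjusted p = 0.833), and it was lower in the clones than in ES cells (-0.6 ± 0.11, limma adjusted p = 0.0454). Mat2a, which makes the methyl donor, was at -0.21 ± 0.33 in the first comparison and 0.33 ± 0.56 against MEF and did not pass.

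Germ-line genes, many of which are silenced by promoter methylation in somatic cells, were measured in 12 of 17 in ES cells, and among the clones in 4 and 5 with 3 factors, 3 with 4 factors and 9 with 10 factors. The counts were 3 in the NIH3T3 HRasV12 cells, 2 in the immortalised MEF line, 3 in the unselected MEF and 4 in MEF. Of all probes, 52.4% to 59.6% were well above background on an array. The median level of the 17 genes was at the floor in every clone. Several passed the filter on low values through ES cells alone, so no count against ES cells is given. Tex19.1, a gene of germ and pluripotent cells, was at -3.74 and -2.68 in the 3-factor clones, -3.47 with 4 factors and 0.44 with 10 factors, against 3.36 in ES cells, and was not well above background in any fibroblast-derived sample. Its difference from them was not called (limma adjusted p = 0.118), nor was that of Rhox5, a homeobox gene (2.4 ± 1.02, limma adjusted p = 0.184). Tuba3a, a testis tubulin, was the 1 germ-line gene called lower in the clones than in MEF, but all 4 clones stood at the floor and 3 of them were not well above background, so no measured spread lies behind that call and no p is given.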

How the data were processed

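Per the labels, 9 Cy3-labelled RNA samples were hybridised to 1 array each. The intensity values used are the processed signal of the deposited scanner files, which the authors' Feature Extraction program (version 8.5.1.1 per the file headers) gave after background subtraction, with 18% to 23.5% of probes at or below 0. Its flags for background (multiple 2.6), saturation and outliers were used as the authors deposited them. The deposited value table held the same signal for all spots within rounding, not log-transformed and not centred. Its column medians were 16.7 and 14.3 for 3-factor clones 1 and 2, 15.2 (4-factor clone), 19.6 (10-factor clone), 16.9 (ES cells), 8.97 (NIH3T3 HRasV12 cells), 10.2 (immortalised line), 10.9 (unselected MEF) and 14.6 (MEF). Signals were divided by the array's 75th percentile (166.6 to 299.6), floored at 3.63% of it and log2-transformed. Control spots (736) and outlier spots (0 to 9 an array) were left out and repeated spots averaged. Between 39.8% and 49.3% of probes were at the floor. Symbols came from RefSeq accessions, RIKEN names or symbols, and 6 from description words after the files were seen. Where a listed gene had several probes, the brightest was used.

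limma 3.58.1 (lmFit, eBayes, R 4.3.3, two-sided, Benjamini-Hochberg over all probes, threshold 0.05) compared the groups over probes that passed the background flag on 50% or more of either group's arrays, and was tested on simulated data. Named genes were the 6 genes, up to 4 called per list and comparison by size with up to 2 bright uncalled, and the 3 most correlated probes. The members and lists were chosen with earlier results of these data known. Alternatives were other background correction, scaling, filter, floor, spread, left-out samples and scan. The files give no genome build for the probes, so their positions are not given.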

Additional observations from a re-analysis of the deposited data

Results flagged for a closer look

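Dnmt3b in the 10-factor clone, at 1.01 on the log2 scale, stood apart from the other iPS clones, which lay between -2.48 and -2.17. The gap to its nearest neighbour was 91.1% of the whole range of the 4 clones. It was the only one of 12 groups of 4 samples, 6 genes in the clones and in the fibroblast-derived samples, in which a sample lay so far out, and chance gives about 5% of such groups. A count of 1 in 12 is near that share, so chance is not excluded. The groups also share samples and are not independent.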

How the results depend on the processing

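The precision is limited by 9 arrays, by lone ES and MEF arrays assumed to vary like the clones, and by levels near background in Dnmt3a, Dnmt3b, Dnmt3l and Tet1. No paired analysis was made because the labels pair no sample of a group with a sample of another. The 2 clones made with 3 factors were also averaged. The causes of the changes below were not tested.

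Against the fibroblast-derived samples 1154 probes were called, against 641 without the filter, 440 with the 3-factor clones averaged, 739 with scan as a block, 0 within scan 1 (2951 at an unadjusted p under 0.05 by limma, with fewer samples) and 393 to 1559 leaving out 1 sample. Against MEF 1829 were called, against 948 with normexp, 198 with the spread pooled over 9 arrays, 348 with the 3-factor clones averaged, 0 within scan 1 (3103 unadjusted) and 334 to 1858 leaving out 1 clone. Against ES cells 1777 were called, against 491 with normexp, 1012 with scaling to the median, 1160 with a lower floor, 890 with the pooled spread, 505 with the 3-factor clones averaged, 0 within scan 1 (3036 unadjusted) and 495 to 2061 leaving out 1 clone. Between 3-factor and other clones 2 were called, against 384 with normexp, 0 with scaling to the median (3650 unadjusted by limma), 40 without the filter, 1 with a lower floor, 126 with the pooled spread, 0 with the 3-factor clones averaged (1249 unadjusted) and 0 to 684 leaving out 1 clone. Scaling to the median called 284 higher and 694 lower against the fibroblast-derived samples (542 and 612 with the 75th percentile) and 271 and 978 against MEF (613 and 1216). With it the median of all probes was -0.27 (0.02 otherwise) in the first of these, 0.27 (-0.07) against ES cells and 0.22 (-0.01) between the clones, and it turned no sign of the 6 genes.

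The Tet1 call against the fibroblast-derived samples was lost under 12 of 20 alternatives, with differences between 0.46 and 1.77, and the Uhrf1 call against MEF under 10 of 15, with differences between 1.34 and 1.59. With the 3-factor clones averaged, limma adjusted p was 0.0966 for Tet1 and 0.086 for Uhrf1. Leaving out 1 sample gave -0.21 to 0.95 for Dnmt3a and -0.17 to 1.63 for Dnmt3l against the fibroblast-derived samples, -0.32 to 0.84 for Dnmt3a against MEF, and -0.1 to 0.33 for Dnmt1 and -0.96 to 0.11 for Tet1 between 3-factor and other clones. Signs turned without the 10-factor clone for Dnmt3a (-0.21) and Dnmt3l (-0.17) against the fibroblast-derived samples, for Dnmt3a against MEF (-0.32), and for Dnmt1 (-0.06) and Tet1 (0.11) between 3-factor and other clones, and for Dnmt1 there also without 3-factor clone 2 (-0.1). None of these 6 values passed the test.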
